A study of Mus musculus with 8 samples.

Results

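The genes described here are 10 markers of muscle macrophages, Cd163, Mrc1, C1qa, C1qb, C1qc, Csf1r, Adgre1, Cd68, Lyz2 and Cd74, taken by their symbols from 54532 genes counted in quadriceps muscle of mice. The knockout group held 4 libraries from Gpcpd1 Flox/Flox mice that were positive for Mck-Cre, a Cre recombinase driven by the muscle creatine kinase promoter. The control group held 4 libraries from Gpcpd1 Flox/Flox mice negative for Mck-Cre, so the floxed allele was common to both groups, and effects of Cre itself and of Gpcpd1 loss cannot be told apart. All mice were aged 3 months and were fed chow diet. RNA was sequenced from the 3′ ends of polyadenylated transcripts (QuantSeq FWD), so reads do not scale with transcript length. Levels are given in CPM, the reads of a gene scaled to a common library size by the TMM method, and log2 fold changes are knockout over control.

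Macrophages are phagocytes that reside between muscle fibres, where they clear debris and dying cells and take part in repair. They depend on signals through the CSF1 receptor (Csf1r), and they carry scavenger receptors (Cd163, Mrc1), make the complement protein C1q (C1qa, C1qb, C1qc), digest what they take up in lysosomes (Cd68, Lyz2) and can present antigen (Cd74). In RNA from whole muscle, fewer macrophages and less RNA per macrophage cannot be told apart.

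The knockout libraries held 4806806 to 5405999 reads and the control libraries 4404116 to 5183079. Gpcpd1, the targeted gene, was at 35.1 ± 3.45 CPM in knockout muscle and 149.7 ± 10.7 CPM in control muscle (SD, n = 4 each), and which exons are floxed is not given in the sources used here, so these 3′ reads need not measure the deletion itself. Defining genes of muscle fibres were abundant in every library, with summed levels of 176408 to 181319 CPM in knockout and 163658 to 182891 CPM in control libraries. Every library had at least 647 reads of the Y-linked gene Ddx3y and at most 1 read of Xist. The 10 macrophage genes held few of the reads, 368 to 706 in a knockout library and 515 to 923 in a control library, and a floor of 3 reads corresponded to 0.557 to 0.646 CPM. The labels do not say that each library came from a different mouse, and the p-values therefore cover only the spread among the libraries at hand, which may be technical.

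Transcripts of Cd163, C1qb and Csf1r were lower in knockout muscle, at 59.6%, 56.3% and 66.5% of the control level by the fitted fold change. The edgeR fit called 0 of the 9 tested macrophage genes higher, against 8.87% of all tested genes. DESeq2 and limma voom also called 0 higher, and no macrophage gene rose at an unadjusted p under 0.05. Of the 10 genes, 9 passed the low-count filter and Adgre1 did not. Across all 10691 tested genes, 15.7% had an adjusted p under 0.05 in edgeR's quasi-likelihood test and were called, and 6.8% were called lower, against 3 of the 9 tested macrophage genes. All 9 had a log2 fold change below 0, as had 49.1% of all tested genes. Their median was -0.44, against 0.01 over all tested genes, and 7.06% of tested genes lay at or below that median.

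**Figure D1:**
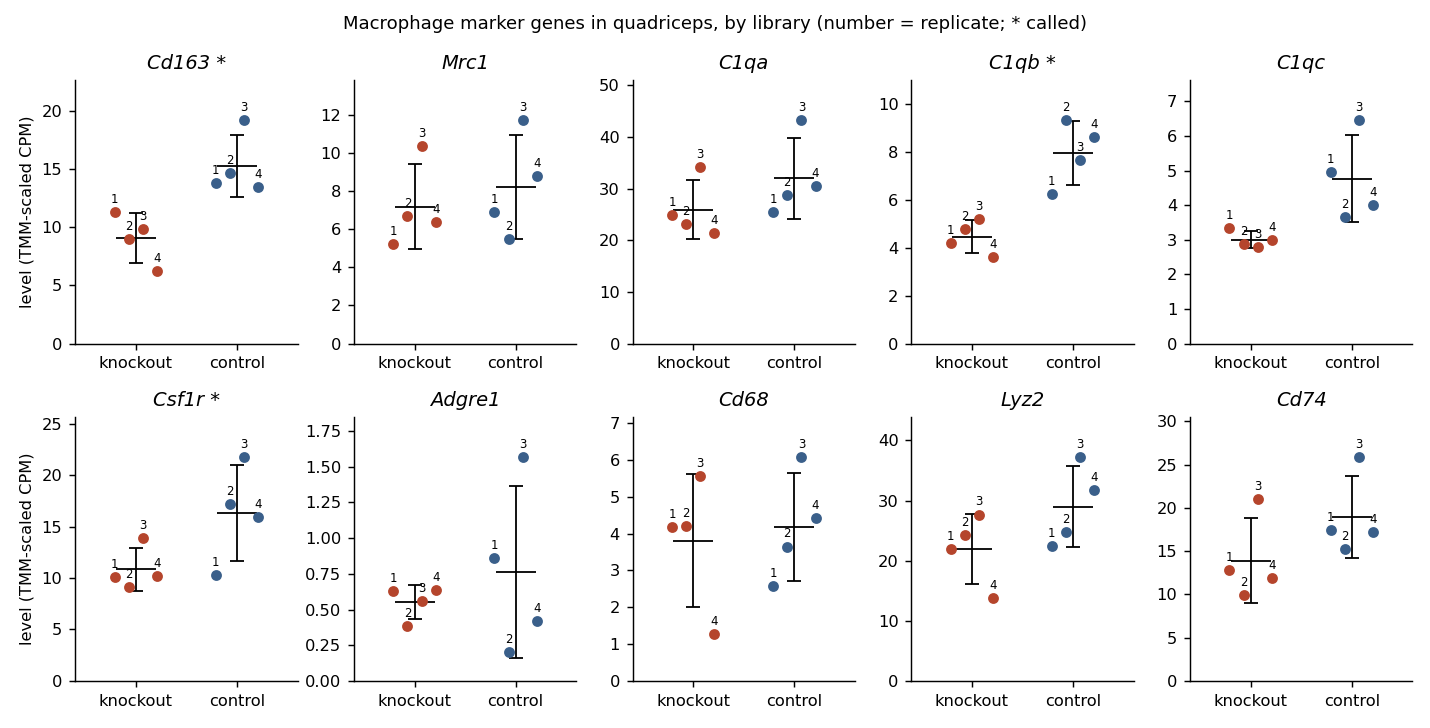
Level of each of the 10 macrophage genes in TMM-scaled CPM (vertical axes from 0, scaled per gene) in the 4 knockout libraries (left, red) and the 4 control libraries (right, blue), numbered by replicate, with the mean and SD in black; an asterisk marks genes called by edgeR. Knockout and control libraries do not overlap for Cd163, C1qb and C1qc, and control 3 is the highest library for 9 of the 10 genes.

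Cd163, the scavenger receptor that takes up complexes of haemoglobin and haptoglobin, lies at chr6:124304656-124330527 on the plus strand of GRCm38. It had 11.3, 8.98, 9.85 and 6.19 CPM in knockout libraries 1 to 4, against 13.8, 14.6, 19.2 and 13.5 CPM in control libraries 1 to 4. Every knockout library was below every control library, and knockout 4 and control 3 were the extremes. Groups did not overlap in this direction for 8.92% of all tested genes. Cd163 averaged 9.08 ± 2.16 CPM in knockout and 15.3 ± 2.67 CPM in control muscle (SD, n = 4 each). On the log2 scale it fell by 0.75 (SE 0.18, 95% interval -1.12 to -0.38, edgeR adjusted p = 0.00478). It was also called in all 18 alternative analyses, with log2 fold changes between -0.87 and -0.62.

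Mrc1, the mannose receptor that binds sugars on microbes and on glycoproteins to be cleared, lies at chr2:14229392-14332057 on the plus strand. It had 5.24, 6.68, 10.4 and 6.40 CPM in knockout libraries 1 to 4, against 6.89, 5.47, 11.7 and 8.83 CPM in control libraries 1 to 4. The groups overlapped over most of their range, with replicate 3 highest in each. For Mrc1 the log2 fold change was -0.19 (SE 0.24, 95% interval -0.69 to 0.31, edgeR adjusted p = 0.653), and it was 0.023 without control 3. Whether Cd163 and Mrc1 changed unequally was asked of the log2 ratio of Cd163 to Mrc1 within each library. That ratio averaged 0.33 ± 0.52 in knockout and 0.89 ± 0.34 in control libraries (SD, n = 4 each), a difference of -0.56 with a 95% interval of -1.41 to 0.46. Permuting the 8 libraries exactly, two-sided, gave an exact permutation p = 0.143, with an adjusted p = 0.429 over the 6 ratios compared, so a difference between the scavenger receptors was not shown. The smallest p this design allows is 0.0286, so after adjustment over the 6 ratios no ratio could pass 0.05 on its own.

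The promoters of both scavenger receptor genes and of C1qb and C1qc are shown because these genes include the clearest changes and their closest partners. Each window of 300 bases runs from 250 bases before to 50 bases after the RefSeq start of the gene on its own strand (GRCm38.p6). These starts differ from the gene coordinates given in the text, which are from GENCODE, and differ most for C1qc. The windows are chr6:124304401-124304700 (plus strand, Cd163), chr2:14229164-14229463 (plus strand, Mrc1), chr4:136886151-136886450 (minus strand, C1qb) and chr4:136892865-136893164 (minus strand, C1qc). Capitals mark GAGGAA or its reverse complement TTCCTC, the purine-rich core recognised by PU.1, a transcription factor of myeloid cells.
Cd163: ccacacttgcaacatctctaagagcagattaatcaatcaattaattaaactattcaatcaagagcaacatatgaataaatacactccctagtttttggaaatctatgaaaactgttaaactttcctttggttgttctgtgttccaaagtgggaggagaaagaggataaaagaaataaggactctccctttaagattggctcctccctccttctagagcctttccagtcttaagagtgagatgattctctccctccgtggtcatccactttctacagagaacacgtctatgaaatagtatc
Mrc1: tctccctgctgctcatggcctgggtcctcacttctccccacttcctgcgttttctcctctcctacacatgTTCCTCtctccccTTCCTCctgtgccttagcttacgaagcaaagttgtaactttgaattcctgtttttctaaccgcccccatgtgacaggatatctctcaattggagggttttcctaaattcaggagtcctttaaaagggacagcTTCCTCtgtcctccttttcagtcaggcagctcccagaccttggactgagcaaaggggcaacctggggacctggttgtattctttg
C1qb: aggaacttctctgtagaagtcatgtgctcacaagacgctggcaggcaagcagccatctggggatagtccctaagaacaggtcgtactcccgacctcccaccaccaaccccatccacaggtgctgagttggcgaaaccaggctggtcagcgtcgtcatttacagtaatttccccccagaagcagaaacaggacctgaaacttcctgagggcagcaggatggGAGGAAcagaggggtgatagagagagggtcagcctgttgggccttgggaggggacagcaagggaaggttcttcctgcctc
C1qc: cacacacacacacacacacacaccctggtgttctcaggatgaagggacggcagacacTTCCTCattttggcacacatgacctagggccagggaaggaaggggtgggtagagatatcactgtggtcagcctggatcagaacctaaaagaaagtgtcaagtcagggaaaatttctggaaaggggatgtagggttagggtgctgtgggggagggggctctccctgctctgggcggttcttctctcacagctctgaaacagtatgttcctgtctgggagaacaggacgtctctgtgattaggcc

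On both strands the 6-letter motif matched 3 times in the Mrc1 window, 1 time in the C1qb window and 1 time in the C1qc window, and 0 times in the Cd163 window. Windows were matched for 6 of the 10 macrophage genes, and 4 of these 6 held a match. Among all 32851 promoter windows, 28.3% held one. A match is a description of letters and not of binding.

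The genes of the 3 chains of C1q, the recognition protein of the classical complement pathway, lie next to each other on the minus strand of chromosome 4: C1qb at chr4:136880129-136886187, C1qc at chr4:136889804-136893065 and C1qa at chr4:136895917-136898803. The chains assemble in equal numbers into 1 protein. C1qb had 4.19, 4.77, 5.20 and 3.63 CPM in knockout libraries 1 to 4, against 6.25, 9.32, 7.64 and 8.62 CPM in control libraries 1 to 4. Every knockout library was below every control library, and here control 2, not control 3, was highest. C1qb averaged 4.45 ± 0.687 CPM in knockout and 7.96 ± 1.33 CPM in control muscle (SD, n = 4 each). On the log2 scale it fell by 0.83 (SE 0.21, 95% interval -1.27 to -0.39, edgeR adjusted p = 0.00768). Like Cd163 it was called in all 18 alternatives, although these values rest on 17 to 28 reads in a knockout library and 29 to 46 in a control library.

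C1qc had 3.35, 2.86, 2.79 and 2.99 CPM in knockout libraries 1 to 4, against 4.95, 3.65, 6.46 and 3.99 CPM in control libraries 1 to 4. The groups did not overlap for C1qc either, with 14 to 16 reads in a knockout library and 18 to 33 in a control library. Its log2 fold change of -0.67 (SE 0.26, 95% interval -1.21 to -0.14) did not pass the threshold (edgeR adjusted p = 0.0826), but did so without control 2 (edgeR adjusted p = 0.0497).

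C1qa had 24.9, 23.1, 34.2 and 21.3 CPM in knockout libraries 1 to 4, against 25.4, 28.8, 43.3 and 30.5 CPM in control libraries 1 to 4. Knockout 3 stood above all control libraries but control 3, so the groups overlapped. For C1qa the log2 fold change was -0.30 (SE 0.17, 95% interval -0.66 to 0.05, edgeR adjusted p = 0.259). Within libraries, the log2 ratio of C1qb to C1qa averaged -2.40 ± 0.18 in knockout and -1.93 ± 0.37 in control libraries (SD, n = 4 each). The difference of -0.47 had a 95% interval of -1.03 to 0.27 and an exact permutation p = 0.0857, with an adjusted p = 0.429. The ratios of C1qb to C1qc (difference -0.21, interval -1 to 0.57) and of C1qa to C1qc (0.27, interval -0.17 to 1.15) had an exact permutation p = 0.457 and p = 0.400, with an adjusted p = 0.457 for each. An unequal change of the 3 chain genes was therefore not shown, and the intervals leave room for one of about the size of the C1qb change.

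Csf1r encodes the receptor for CSF1 and IL-34, the growth factors that keep macrophages alive, and lies at chr18:61100598-61132149 on the plus strand. It had 10.1, 9.17, 13.9 and 10.2 CPM in knockout libraries 1 to 4, against 10.3, 17.2, 21.7 and 15.97 CPM in control libraries 1 to 4. Control 1 lay among the knockout libraries, so the groups overlapped. Csf1r averaged 10.8 ± 2.11 CPM in knockout and 16.3 ± 4.69 CPM in control muscle (SD, n = 4 each). On the log2 scale it fell by 0.59 (SE 0.19, 95% interval -0.99 to -0.19, edgeR adjusted p = 0.0392). The call was lost in 8 of 18 alternatives, with adjusted p-values up to 0.166. These were limma voom, thinning to the smallest library, and leaving out knockout 1, 2 or 4 or control 2, 3 or 4. Csf1r also overlaps Hmgxb3 on the opposite strand, which had 816 reads over the 8 libraries, and no source used here gives the strand setting of the counting, so its count is uncertain.

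The ligands and signalling partners of the CSF1 receptor were read beside it: of 13 listed genes 6 were tested, 1 was called lower and 1 higher. Il34, a ligand of the receptor, had 14.9, 19.3, 15.4 and 14.1 CPM in knockout libraries 1 to 4, against 19.4, 25.9, 23.7 and 19.97 CPM in control libraries 1 to 4. The highest knockout library reached 19.3 CPM and the lowest control library 19.4 CPM, so the groups met without overlapping. Its log2 fold change was -0.48 (SE 0.14, edgeR adjusted p = 0.0203), and the call was lost without knockout 3, knockout 4, control 2 or control 3. Pik3cd, a catalytic subunit of phosphoinositide 3-kinase found mainly in leukocytes, was higher, at 52.9 ± 4.97 CPM in knockout and 34.3 ± 4.34 CPM in control muscle (log2 fold change 0.62, SE 0.11, edgeR adjusted p = 0.000234). It was called in all 18 alternatives. Its level was above that of Csf1r (10.8 CPM in knockout and 16.3 CPM in control muscle), and which cells it came from was not tested.

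Adgre1, which encodes the F4/80 antigen by which mouse macrophages are commonly stained, lies at chr17:57358691-57483527 on the plus strand and was close to the floor of 3 reads. It had 3, 2, 3 and 3 reads in knockout libraries 1 to 4, against 4, 1, 8 and 2 reads in control libraries 1 to 4. A difference in Adgre1 was not detectable at this depth. The log2 ratio of Csf1r to Adgre1 differed by -0.39 (interval -1.43 to 0.78, exact permutation p = 0.400, adjusted p = 0.457) and rests on those few reads.

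Cd68, a lysosomal membrane protein of phagocytes, lies at chr11:69664213-69666153 on the minus strand. It had 4.19, 4.20, 5.57 and 1.28 CPM in knockout libraries 1 to 4, against 2.58, 3.65, 6.07 and 4.41 CPM in control libraries 1 to 4. Only knockout 4, with 6 reads, stood below the control libraries. For Cd68 the log2 fold change was -0.12 (SE 0.33, 95% interval -0.81 to 0.56, edgeR adjusted p = 0.856), and it was 0.14 without knockout 4.

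Lyz2, the lysozyme of myeloid cells that cuts bacterial cell walls, lies at chr10:117277331-117282321 on the minus strand. It had 22.0, 24.3, 27.7 and 13.9 CPM in knockout libraries 1 to 4, against 22.4, 24.7, 37.2 and 31.7 CPM in control libraries 1 to 4. Control 1 and control 2 lay within the knockout range, with knockout 4 the lowest library. Its log2 fold change was -0.40 (SE 0.20, 95% interval -0.82 to 0.02, edgeR adjusted p = 0.204). The closely similar gene Lyz1 had 3 to 10 reads in a knockout library and 4 to 19 in a control library, so reads assigned to Lyz2 could include some of Lyz1.

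Cd74, the invariant chain that guides MHC class II molecules to the compartment where they take up peptide, lies at chr18:60803848-60812652 on the plus strand. It had 12.8, 9.93, 20.995 and 11.9 CPM in knockout libraries 1 to 4, against 17.4, 15.2, 25.8 and 17.2 CPM in control libraries 1 to 4. Knockout 3 alone of the knockout libraries reached the control range. The log2 fold change of Cd74 was -0.44 (SE 0.22, 95% interval -0.91 to 0.03, edgeR adjusted p = 0.204). Cd74 was called without knockout 3 and in the analysis with no low-count filter, and in none of the other 16 alternatives. The log2 ratio of Cd163 to Cd74 differed by -0.28 between the groups (interval -0.995 to 0.28, exact permutation p = 0.371, adjusted p = 0.457).

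**Figure D2:**
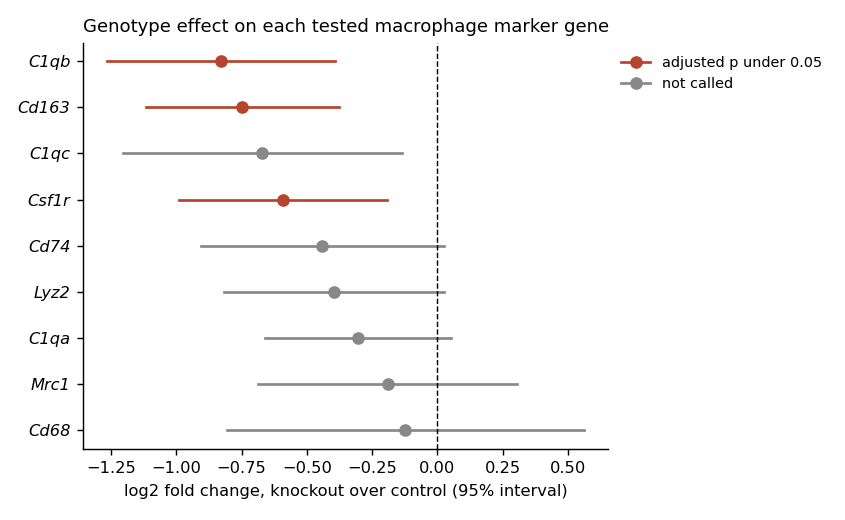
Log2 fold change, knockout over control, of the 9 tested macrophage genes (points) with its 95% interval (lines), ordered from the lowest at the top; red marks genes with an edgeR adjusted p under 0.05. Every point lies below 0, from -0.83 for C1qb to -0.12 for Cd68, and the intervals of Cd163, C1qb, C1qc and Csf1r do not reach 0, which makes 4 of 9 at an unadjusted p under 0.05, against 28.1% of all tested genes.

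Libraries of 1 genotype differed from each other, in the same order for many but not all of the macrophage genes. The summed level of the 10 genes was 98.7, 94.3, 131.2 and 78.5 CPM in knockout libraries 1 to 4, against 110.9, 122.8, 180.7 and 135.1 CPM in control libraries 1 to 4. Knockout 3 lay above control 1 and control 2, so the sums overlapped, and the mean knockout sum was 73.3% of the mean control sum. Among the knockout libraries, knockout 3 was highest for 7 of the 10 genes and knockout 4 lowest for 5. Among the control libraries, control 3 was highest for 9 and control 1 lowest for 5. C1qb and C1qc departed from this order: C1qb was highest in control 2, and C1qc was lowest of all libraries in knockout 3. Over the 8 libraries, which share their depth and scaling across genes, Pearson's r of log2 CPM centred within genotype with the mean of the other macrophage genes was 0.30 for C1qc and 0.45 for C1qb, the lowest of the 9 tested genes, and 0.96 for C1qa, the highest.

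Relative to its control mean on the log2 scale, the median tested gene stood at -0.43, -0.63, -0.04 and -0.62 in knockout libraries 1 to 4. It stood at -0.30, -0.12, 0.45 and 0.02 in control libraries 1 to 4. In knockout 3, where the median was near the control mean, Cd163 (-0.60), C1qb (-0.56) and C1qc (-0.66) remained below it, while Cd68 (0.44) and Mrc1 (0.38) were above. Without control 3, the library with the highest levels, the median log2 fold change was -0.27 in place of -0.44, and 2 genes, Cd163 and C1qb, were called lower.

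**Figure D3:**
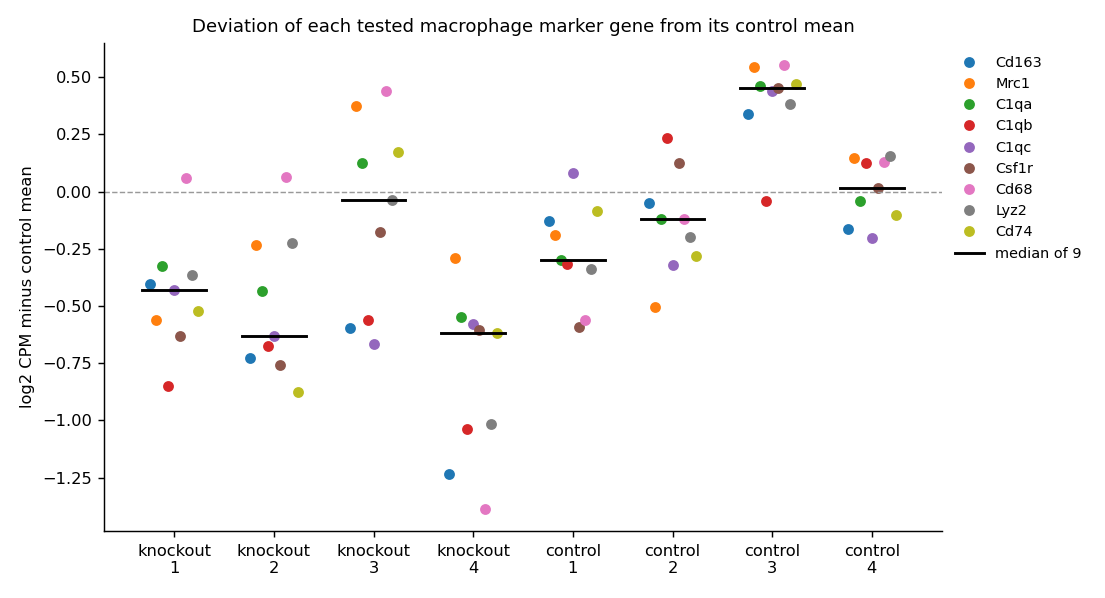
Deviation of log2 CPM from the control mean (vertical axis) for each of the 9 tested macrophage genes (coloured points) in each library (horizontal axis, knockout libraries on the left), with the median of the 9 genes as a black bar. Knockout 3 (median -0.04) lies among the control libraries, and control 3 (median 0.45) lies above all others.

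Further genes of macrophages, and then of other cells, were read from lists. The calls in each list stand beside 15.7% of all tested genes called, 8.87% higher and 6.8% lower. Of 37 further macrophage and monocyte markers 18 were tested, and 1 was called, lower: Maf, at 545.0 ± 47.2 CPM in knockout and 818.5 ± 97.3 CPM in control muscle (log2 fold change -0.59, SE 0.09, edgeR adjusted p = 7.7e-05). Maf is a transcription factor of macrophages that muscle fibres also express. The median log2 fold change of the 18 was -0.13, with 14 below 0 and 4 above. The list held 1 call among 18 tested genes, against 15.7% of all tested genes.

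Among 20 genes linked to resident macrophages 15 were tested, 4 were called lower and 1 higher, and the median log2 fold change was -0.36. Folr2, a folate receptor of resident macrophages, had 3.14, 4.01, 4.64 and 2.56 CPM in knockout libraries 1 to 4, against 5.82, 6.08, 8.81 and 4.62 CPM in control libraries 1 to 4. Knockout 3 lay just above control 4, and the other libraries were separate. Its log2 fold change was -0.81 (SE 0.25, edgeR adjusted p = 0.0303), a call lost without knockout 1, knockout 4 or control 3 and by DESeq2.

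Pf4, a chemokine gene of megakaryocytes and resident macrophages, had 6.28, 6.30, 5.02 and 3.84 CPM in knockout libraries 1 to 4, against 7.75, 8.11, 18.2 and 7.57 CPM in control libraries 1 to 4. The groups did not overlap, and control 3 stood far above the other control libraries. For Pf4 the log2 fold change was -0.96 (SE 0.29, edgeR adjusted p = 0.0332), and it was -0.55 without control 3, where the call was lost, as it was without knockout 2, 3 or 4.

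Apoe, which encodes a lipid carrier made by macrophages and other cells, was at 43.8 ± 3.80 CPM in knockout and 57.1 ± 5.75 CPM in control muscle (log2 fold change -0.38, SE 0.10, edgeR adjusted p = 0.00966). In the opposite direction, Cbr2, a carbonyl reductase gene that marks resident macrophages in mouse tissue, had 47.8, 32.8, 36.6 and 45.9 CPM in knockout libraries 1 to 4, against 13.8, 17.0, 23.9 and 14.1 CPM in control libraries 1 to 4. Every knockout library was above every control library (log2 fold change 1.23, SE 0.16, edgeR adjusted p = 2.59e-05). The fall of Apoe and the rise of Cbr2 were called in all 18 alternatives. The number of called resident macrophage genes was 2 without control 3 and 3 by DESeq2 or without knockout 2, 3 or 4.

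Complement genes outside C1q had 15 of 19 tested, with 2 lower and 0 higher and a median of -0.21. C3, the central component on which the pathways converge, was at 64.7 ± 5.62 CPM in knockout and 95.6 ± 17.0 CPM in control muscle (log2 fold change -0.56, SE 0.11, edgeR adjusted p = 0.000692). Serping1, the inhibitor of the C1 complex, also fell (-0.37, SE 0.12, edgeR adjusted p = 0.0312), a call lost after thinning to the smallest library and without knockout 3 or 4 or control 3 or 4. Fibroblasts and fat cells also make both, and their part in these values was not tested.

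Partners of Cd74 in MHC class II presentation had 11 of 17 tested, with 1 higher and 0 lower and a median of -0.12. The called gene was Rfxank, a subunit of a transcription factor complex at MHC class II promoters, at 8.71 ± 0.179 CPM in knockout and 4.63 ± 1.01 CPM in control muscle (log2 fold change 0.91, SE 0.20, edgeR adjusted p = 0.00246). Without knockout 3, 2 genes of this list were called.

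Genes for handling haemoglobin, haem and iron had 15 of 18 tested, with 3 lower and 1 higher and a median of -0.24. Slc11a2, an iron transporter gene, had 19.9, 18.3, 20.3 and 14.5 CPM in knockout libraries 1 to 4, against 31.9, 34.7, 33.1 and 33.0 CPM in control libraries 1 to 4. The groups were far apart, with a log2 fold change of -0.86 (SE 0.12, edgeR adjusted p = 1.92e-05). The transferrin receptor gene Tfrc (-0.57, SE 0.17, edgeR adjusted p = 0.0248) and the biliverdin reductase gene Blvra (-0.39, SE 0.11, edgeR adjusted p = 0.0204) fell as well. The call of Tfrc was lost after thinning to the smallest library and without knockout 3, control 2 or control 3, and that of Blvra without knockout 2, knockout 3 or control 3. Hebp1, a haem-binding protein gene, rose (0.91, SE 0.31, edgeR adjusted p = 0.0448), a call lost in 10 of its 17 alternatives. Without knockout 3, 1 gene of this list was called, and 2 were called without knockout 2, control 2 or control 3. Without knockout 1, 5 were called. These genes are active in many cell types, muscle fibres among them.

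Lysosomal genes of phagocytes had 19 of 20 tested, with 4 lower and 0 higher and a median of -0.26. Npc1, which exports cholesterol from lysosomes, was at 76.7 ± 4.86 CPM in knockout and 168.9 ± 24.2 CPM in control muscle (log2 fold change -1.14, SE 0.10, edgeR adjusted p = 1.52e-08). The progranulin gene Grn (-0.52, SE 0.11, edgeR adjusted p = 0.00187), the protease gene Ctsd (-0.38, SE 0.09, edgeR adjusted p = 0.00384) and the membrane protein gene Lamp1 (-0.28, SE 0.08, edgeR adjusted p = 0.0220) fell too. The call of Lamp1 was lost without knockout 2, 3 or 4. Summed over the list, the level was 3213 to 3443 CPM in knockout and 3763 to 4401 CPM in control libraries, many times the level of the macrophage genes, and every cell type has lysosomes.

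Chemokine and inflammatory genes were mostly too few to test: 7 of 28 passed the filter, and 1 was called, lower. Ccl6, a chemokine gene of myeloid cells, had 9.01, 7.83, 10.6 and 8.53 CPM in knockout libraries 1 to 4, against 13.6, 9.73, 17.2 and 14.5 CPM in control libraries 1 to 4. Control 2 lay below knockout 3, so the groups overlapped. The log2 fold change of Ccl6 was -0.61 (SE 0.18, edgeR adjusted p = 0.0196), and the call was lost without knockout 2, knockout 4 or control 3.

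**Figure D4:**
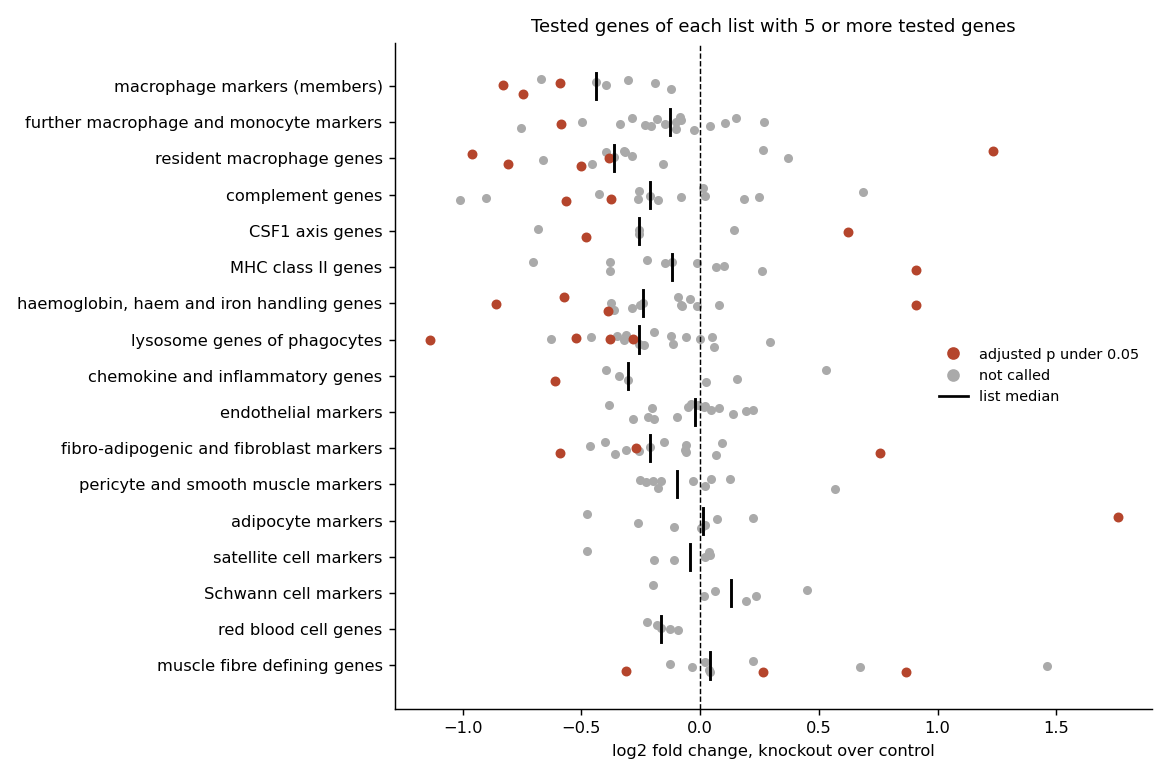
Log2 fold change, knockout over control (horizontal axis), of every tested gene in each list with at least 5 tested genes (rows); red points have an edgeR adjusted p under 0.05, grey points do not, and black bars are list medians. The 9 macrophage genes have a median of -0.44, the further macrophage and monocyte markers of -0.13 and the resident macrophage genes of -0.36. The endothelial, pericyte and smooth muscle and satellite cell markers have medians of -0.02, -0.10 and -0.04. Those of the fibro-adipogenic and red blood cell markers are -0.21 and -0.16.

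Markers of other cells that share the spaces between fibres were set beside the macrophage genes. None of 16 tested endothelial, 10 pericyte and smooth muscle, 6 satellite cell, 6 Schwann cell and 5 red blood cell markers was called by edgeR, DESeq2 or limma voom. At an unadjusted edgeR p under 0.05 there were 2 endothelial genes, 1 pericyte gene and 0 in the other 3 lists. Without single libraries, 1 endothelial gene (without control 1 or 2), 1 pericyte gene (without knockout 1) and 2 red blood cell genes (without knockout 2) were called. Summed endothelial markers were at 1351 to 1517 CPM in knockout and 1429 to 1468 CPM in control libraries, so they overlapped. The genes of lowest p among the endothelial, pericyte, satellite cell and red blood cell markers were Aqp1 (-0.20, SE 0.08, edgeR adjusted p = 0.108), Cspg4 (0.57, SE 0.20, edgeR adjusted p = 0.0593), Myod1 (-0.48, SE 0.23, edgeR adjusted p = 0.182) and Hbb-bs (-0.18, SE 0.12, edgeR adjusted p = 0.382). Aqp1, a water channel of vessel lining, was called with library totals alone as the scaling.

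All 5 tested red blood cell markers had a log2 fold change below 0, with a median of -0.16. Their summed level was 614.6, 869.5, 599.4 and 535.7 CPM in knockout libraries 1 to 4, against 666.6, 684.1, 870.5 and 742.1 CPM in control libraries 1 to 4. The sums overlapped, with knockout 4 lowest and control 3 highest, as for the sum of the macrophage genes, and knockout 2 close to control 3. The part of blood in the macrophage values was not tested.

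Markers of fibro-adipogenic cells and fibroblasts had 15 of 15 tested, with 2 lower and 1 higher and a median of -0.21. Pi16, a marker of adventitial fibroblasts, fell (-0.59, SE 0.11, edgeR adjusted p = 0.000553), as did the proteoglycan gene Dcn (-0.27, SE 0.09, edgeR adjusted p = 0.0387), whose call was lost without knockout 3 or 4 or control 3 or 4 and with the library number as a covariate, while the matrix gene Smoc2 rose (0.76, SE 0.13, edgeR adjusted p = 0.000345). The summed level of these markers was 1109 to 1448 CPM in knockout and 1352 to 1650 CPM in control libraries, lowest in knockout 4 and highest in control 3, the libraries that were also lowest and highest for the macrophage sum. Their part in the result was not tested. Without knockout 1 or control 2, 5 genes of this list were called, and 2 without knockout 4. Fat cell markers had 8 of 10 tested and 1 called, Car3, which muscle fibres also express (1.76, SE 0.09, edgeR adjusted p = 1.96e-12). Of the 11 defining genes of muscle fibres, the oxygen carrier gene Mb (0.87, SE 0.12, edgeR adjusted p = 6.14e-05) and the actin gene Acta1 (0.26, SE 0.09, edgeR adjusted p = 0.0495, lost in 11 of 18 alternatives) rose, and the fast myosin gene Myh4 fell (-0.31, SE 0.09, edgeR adjusted p = 0.0128).

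Other immune cells were near the limit of detection. Of 20 lymphocyte markers 2 were tested and none was called by edgeR or limma voom, and the lowest p was that of Ighm, an immunoglobulin chain gene (0.43, SE 0.18, edgeR adjusted p = 0.15), which was called higher by DESeq2, by edgeR without robust estimation, with no low-count filter and without knockout 1. The summed lymphocyte level was 125.7 to 239.9 CPM in knockout and 118.5 to 155.9 CPM in control libraries, of which Ighm alone made up most. Granulocyte and mast cell markers had 2 of 17 tested, with 8 of the 17 at 0 reads in all libraries, and dendritic cell markers 1 of 10. No gene of these 2 lists was called by edgeR, DESeq2 or limma voom or had an unadjusted p under 0.05. Their genes of lowest p were Tpsb2 (-0.55, SE 0.28, edgeR adjusted p = 0.201) and Zbtb46 (-0.19, SE 0.16, edgeR adjusted p = 0.479).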

How the data were processed

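The values deposited by the authors are whole-number read counts for Ensembl gene IDs, per the file headers, and were not normalized. Tools and builds named in the submitters' processing notes are Bowtie2 2.3.4.1, featureCounts, Subread 1.6.2 and GRCm38 and mm10. No source used here gives the annotation release, the strand setting or the treatment of reads mapping to several places, so overlapping and near-identical genes have uncertain counts. Of 54532 IDs, 54495 were matched to GENCODE M21 names (GRCm38), and all 10 macrophage genes were matched. Groups came from the genotype labels; replicates were numbered in accession order and pair no samples.

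The analysis of these counts used edgeR 4.0.16 under R 4.3.3: filterByExpr (minimum count 10, minimum total 15) kept 10691 genes, libraries were TMM-scaled, and genotype was tested with the robust quasi-likelihood F test, with Benjamini-Hochberg adjustment over all tested genes and a threshold of 0.05. Each SE was derived from the log2 fold change and its F value, as their ratio after taking the root of F. Deviations from the control mean use log2 CPM with a prior count of 2. Ratios between genes used CPM plus 0.5 and exact two-sided permutation of libraries, whose inversion gave the intervals. The floor of 3 reads is a detection level and does not cover the counting error of the levels reported. A chi-square check looked for duplicate libraries: per degree of freedom it was 2.33 to 7.96 in the 12 pairs of 1 genotype, so all 8 libraries were kept. The procedure was tested on simulated data.

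The macrophage genes and the other lists were chosen with earlier results of these data known, so no list was tested as a set. From each other list the text names up to 4 called genes of lowest p, or 1 gene of lowest p where none was called. For 1 list that gene is not reported here. Alternatives were DESeq2 1.42.0, limma 3.58.1 voom, other scalings and filters, thinning, the library number as covariate and leaving out each library. Library numbers were 11 to 14 in the knockout group and 9, 10, 15 and 16 in the control group. As a linear covariate, the number could not remove a difference between middle and outer libraries.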

Additional observations from a re-analysis of the deposited data

How the results depend on the processing

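No paired analysis was possible because the labels give the libraries of the groups no shared replicate numbers. The number of genes called was 1675 in the reported analysis and ranged from 1307 (without knockout 4) to 1728 (without knockout 1) when 1 library was left out. The number of macrophage genes called lower was 3, and 2 to 4 when 1 library was left out. It was 5 with no low-count filter, where Lyz2 and Cd74 passed as well. Their median log2 fold change was -0.44, and -0.64 (without knockout 3) to -0.27 (without control 3) with 1 library left out. Over the other lists 27 of 188 tested genes were called, against 15.7% of all tested genes. That count was 17 (without control 3) to 33 (without knockout 1) with 1 library left out. With 1 library left out, the log2 fold change of Cd68 ranged from -0.37 to 0.14 and changed sign without knockout 4 (0.14) and without control 3 (0.10), and that of Mrc1 ranged from -0.43 to 0.023 and changed sign without control 3 (0.023); neither gene was called in any analysis. The cause of these changes was not tested. No ratio between macrophage genes passed the threshold under either other pseudocount or without any 1 library. After adjustment over the 6 ratios a ratio could not pass on its own, so this outcome was nearly fixed by the design. Depth limits Adgre1, Cd68 and C1qc most: Adgre1 had 26 reads over the 8 libraries, C1qc 153 and Cd68 160.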

Other observations

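The genes whose libraries varied most like the macrophage genes were sought among 9852 tested protein-coding genes with a full name, sex-linked genes left out, by Pearson's r over the 8 libraries, between each gene's log2 CPM and the mean log2 CPM of the 9 tested macrophage genes, both centred within genotype. The 8 highest were Kif3b, Hps4, Lats1, Retnla, Cachd1, Armcx5, Ttr and Srsf6, with r from 0.93 to 0.99. Retnla encodes a secreted protein of alternatively activated macrophages and fat tissue, and was at 13.3 ± 3.68 CPM in knockout and 17.0 ± 3.68 CPM in control muscle (SD, n = 4 each). None of the 8 was called between the genotypes. These values describe a choice of the highest among many genes over 8 libraries of shared depth and scaling, and no p is given for them.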
